A study of Mus musculus with 24 samples.

Results

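The 10 genes described here encode the enzymes that build, lengthen and desaturate fatty acids: Acly, Acaca, Fasn, Elovl1, Elovl5, Elovl6, Scd1, Scd2, Fads1 and Fads2. They were picked by symbol from 55414 gene identifiers, and all 10 were among the 19616 genes with enough counts to be tested. The data are RNA sequencing counts from LSK cells, the lineage-negative, Sca-1 and Kit positive fraction of mouse bone marrow that holds the stem cells and multipotent progenitors of blood. The cells were sorted from lineage-depleted marrow of the leg and hip bones of pups at 21 days of age. Their C57BL/6J mothers ate either regular chow (2018SX, the control groups) or a Western diet (TD.88137), used to make the mothers obese, beginning 4 weeks before mating and continuing through pregnancy and nursing. Female control, female Western diet, male control and male Western diet pups each gave 6 libraries. The labels divide them into 3 batches, each with 2 libraries per group. All groups had the same strain, age and cell sort, and differed in sex and in the diet of the mother. Dams and litters are not named in the labels. The p-values therefore reflect how these libraries vary, and some pups may be littermates.

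Cells make saturated fatty acids in the cytosol from acetyl-CoA, which ATP citrate lyase (Acly) releases from citrate, acetyl-CoA carboxylase (Acaca) converts to malonyl-CoA, and fatty acid synthase (Fasn) assembles into palmitate. The elongases of the Elovl family add carbons at the endoplasmic reticulum, and stearoyl-CoA desaturases (Scd1, Scd2) place the first double bond to make monounsaturated acids such as oleate. Fads1 and Fads2, the delta-5 and delta-6 desaturases, act with Elovl5 on dietary linoleic and alpha-linolenic acid to make polyunsaturated acids such as arachidonic acid. The genes are well known as targets of the lipogenic transcription factor SREBP-1c (gene Srebf1) and of the oxysterol receptor LXR, and polyunsaturated fatty acids lower the expression of several of them in liver.

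The libraries held 38057263 to 51581968 counts in genes. Kit stood at 267 to 883 CPM (counts relative to the TMM-scaled library size) and Cd34 at 227 to 953 CPM over the 24 libraries, while Ly6a, the gene of Sca-1, stood at 2.14 to 39.9 CPM. On the first principal component (17% of the variance) a pair of batch 3 libraries, female control 5 and 6, lay far from the rest, at 95.6 and 75.3, and results that rest on them are also given without them. Markers of mature erythroid cells, which the depletion should remove, were present in all groups. The levels of the 10 matched of 11 listed markers, of which Hbb-bs was the most abundant, summed in females to 1537 to 8925 CPM in controls and to 898 to 3005 CPM with Western diet. In males the sums were 2959 to 7293 CPM in controls and 1165 to 3420 CPM with Western diet. Of these 10 markers, 4 fell with diet in females, where 5.42% of all genes tested were called, 0 in males (0.0102% of all genes) and 8 in the average of both sexes (5.7%), and none was at 0 in any library. Without female control libraries 5 and 6, 2 fell in females (0.763% of all genes called) and 7 in the average (2.22%). With all libraries the 10 fold changes were negative in both sexes, with a median log2 of -0.77 in females and -1.22 in males. B cell markers (10, Igkc the most abundant) summed to 121 to 464 CPM in control and 235 to 927 CPM in Western diet females, and 3 rose in females, of which 0 were called without female control libraries 5 and 6. In males the B cell sums were 246 to 537 CPM in control and 298 to 535 CPM in Western diet libraries, and no B cell marker was called. T and NK cell markers (10) summed to 122 to 299 CPM in control and 275 to 390 CPM in Western diet females. Most of that sum was Nkg7, at a mean of 268 CPM over the 24 libraries against 17.4 CPM for Il7r and 0.477 CPM for Cd3e. Nkg7 was the 1 marker of that list called higher in females, and it was not called there without female control libraries 5 and 6. In the average Nkg7 was also the 1 marker called higher, both with and without those libraries. In males, where no marker of the list was called, the sums were 236 to 376 CPM in control and 334 to 399 CPM in Western diet libraries. The fold changes of the T and NK list were positive for 7 of 10 genes in females, and negative for 9 of 10 in males (median log2 -0.50) and in the average (median -0.17). Of 8 LSK markers 2 rose in females, Mecom and Meis1, and without the same libraries 0 were called. Of the adipocyte markers, which bear on lipogenic genes in marrow, 4 of 10 passed the count filter, with Fabp4 the most abundant, and Lep was at 0 in 20 of 24 libraries. Summed, the adipocyte markers gave 41.6 to 142 CPM for female controls against 26.5 to 119 CPM with Western diet, and 51.6 to 125 CPM for male controls against 48.7 to 124 CPM, overlapping between the diets in both sexes. Over all groups macrophage and dendritic markers (Vcam1 the most abundant) summed to 299 to 1660 CPM. Stromal and endothelial markers (Col1a1) summed to 338 to 1405 CPM, and mast cell and basophil markers (Prss34) to 247 to 902 CPM. No marker of these lists was called in either sex. In the average 1 was, Fcer1a, which was not called without female control libraries 5 and 6. The part of these other cells in the results below was not tested.

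All 10 genes were detected in every library, at very different levels. Per kilobase of exon, the mean over the 24 libraries was highest for Acly at 65.8 ± 12.0 CPM per kb (SD, n = 24), followed by Elovl1 at 54.0 ± 11.7 and Fads2 at 37.95 ± 12.0 CPM per kb. Elovl5 (30.01 ± 5.50) and Scd2 (25.7 ± 6.91) came next, then Fads1 (11.6 ± 2.50), Fasn (10.2 ± 2.62) and Elovl6 (8.45 ± 1.24 CPM per kb). Scd1, at 1.93 ± 0.61 CPM per kb, and Acaca, at 1.71 ± 0.25 CPM per kb, were lowest. Exon length was the union of all annotated exons of a gene, 17.1 kb for Acaca and 4.89 kb for Scd1. Levels by another measure of length were not computed. Among neighbours in this order, the ranges of single libraries failed to overlap only between Elovl6 and Scd1. Scd2 was the most abundant stearoyl-CoA desaturase transcript, with 3270 to 10519 counts a library against 229 to 749 for Scd1, 2 to 35 for Scd4 and 0 to 11 for Scd3. Some exon sequence is shared with other genes, which can cost a gene reads. Of the 50-base stretches of each gene's exons, 30.4% of those of Acaca recurred elsewhere, mostly in the pseudogene Gm5182 (0 to 16 counts). The share was 4.56% for Scd1 and 3.97% for Scd2, mostly within the Scd family, 3.98% for Elovl6, 0.152% for Fads2, 0.139% for Elovl1 and 0% for Acly, Fasn, Elovl5 and Fads1.

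**Figure D1:**
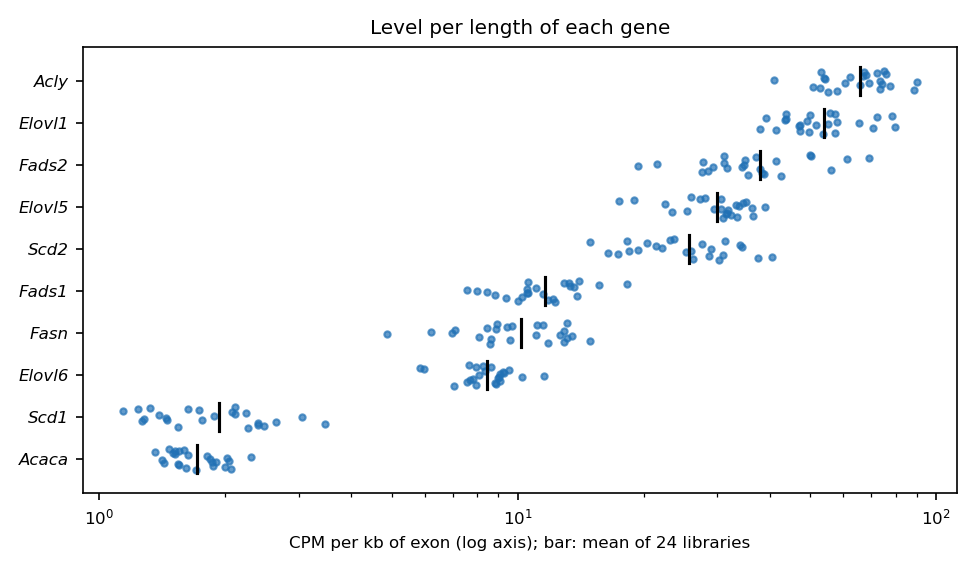
Level of each gene per kilobase of exon (horizontal log axis, CPM per kb) in the 24 libraries, 1 point a library, with the mean as a bar. Acly has the highest mean, 65.8 CPM per kb, and Scd1 and Acaca sit apart from the other 8 genes, with means of 1.93 and 1.71 CPM per kb.

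The first comparison asks what the mother's Western diet changed in the pups' progenitors. Averaged over the sexes, both stearoyl-CoA desaturases rose, Scd2 1.43-fold and Scd1 1.43-fold, and Elovl1, which elongates very long chain saturated acids, fell 1.20-fold. These 3 of 10 genes passed an adjusted p of 0.05 (edgeR quasi-likelihood test, Benjamini-Hochberg over all genes tested) where 5.7% of all genes tested did, 2.19% higher and 3.51% lower. Within females 1 gene passed, Elovl5, which rose 1.36-fold. The share of all genes called there was 5.42%, with 2.2% higher and 3.22% lower. Within males edgeR called none of the 10, in a comparison where it called 2 of 19616 genes tested (0.0102%). DESeq2 and limma-voom each called 1 of the 10, Scd2, where they called 100 and 112 of 19616 genes. In the test of the difference between the sexes' diet effects none of the 10 passed by edgeR, DESeq2 or limma-voom, and edgeR called 0% of all genes. The genes did not move in one direction. With Western diet 5 of 10 fold changes were positive in females and 7 of 10 in males, and the median log2 fold change of the 10 was 0.03 in females and 0.06 in males, beside medians of 0.03 and 0.02 over all genes tested.

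Before adjustment, 8 of the 10 had p under 0.05 in females, where 21.3% of all genes did. The counts were 3 of 10 in males (8.45% of all genes), 6 of 10 in the average (20.6%) and 2 of 10 in the difference between the sexes (8.32%). Without female control libraries 5 and 6 the female count was 2 of 10 (12.0% of all genes), the average count 4 of 10 (15.6%), the count for the difference 1 of 10 (4.15%) and the male count 3 of 10 (8.51%). A lower level in these sorted cells can mean fewer cells that carry the transcript or less of it in each cell, and the counts cannot tell these apart.

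**Figure D2:**
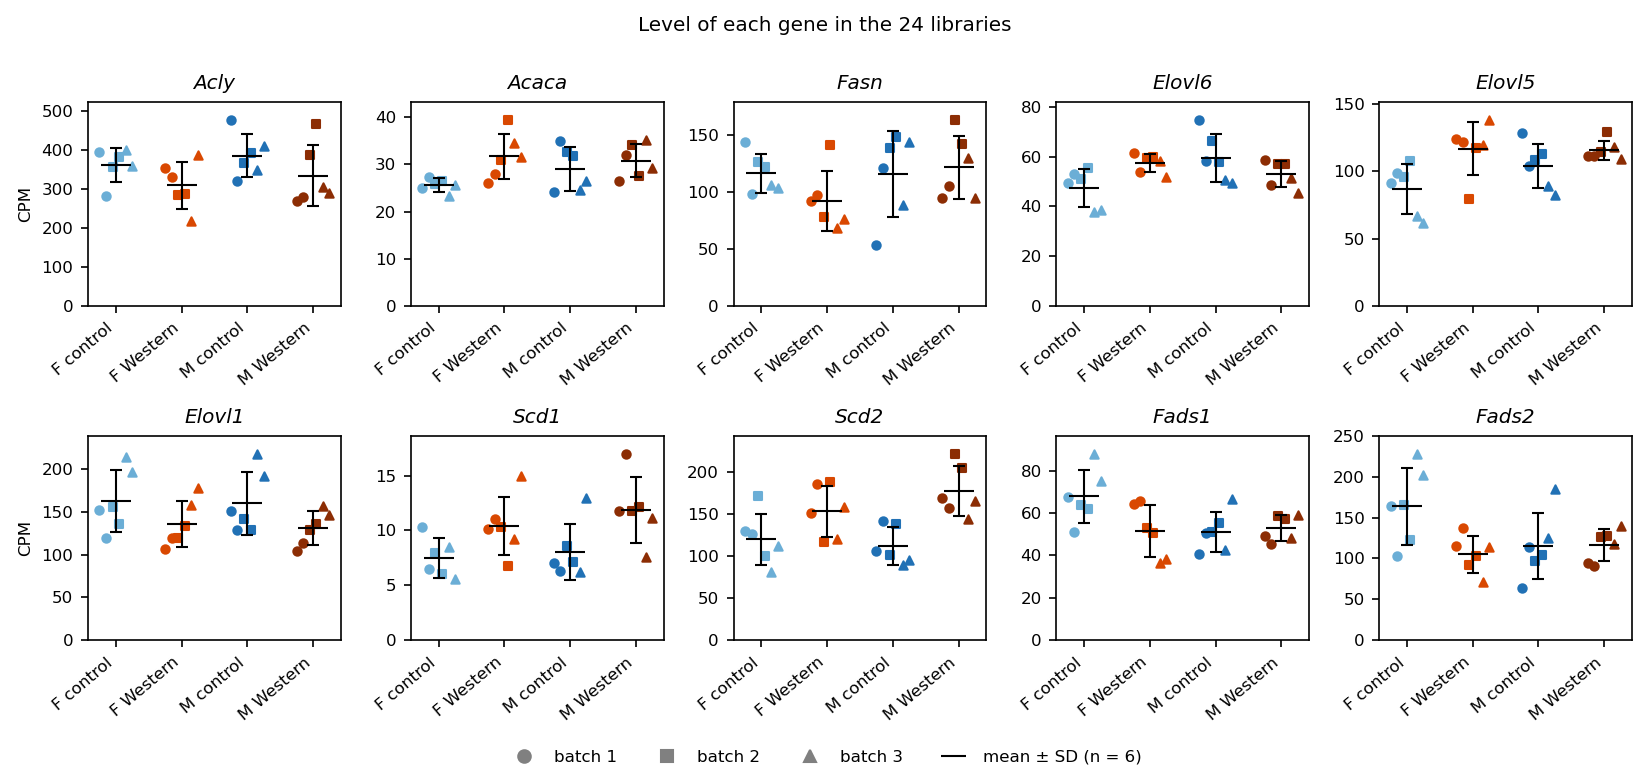
CPM of each gene (vertical axes, from 0) in the 24 libraries by group, with symbols for the batch and bars for the mean ± SD of 6 libraries. The male Western diet libraries of Scd2 all lie above the male controls, while the groups of every other gene overlap within each sex.

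**Figure D3:**
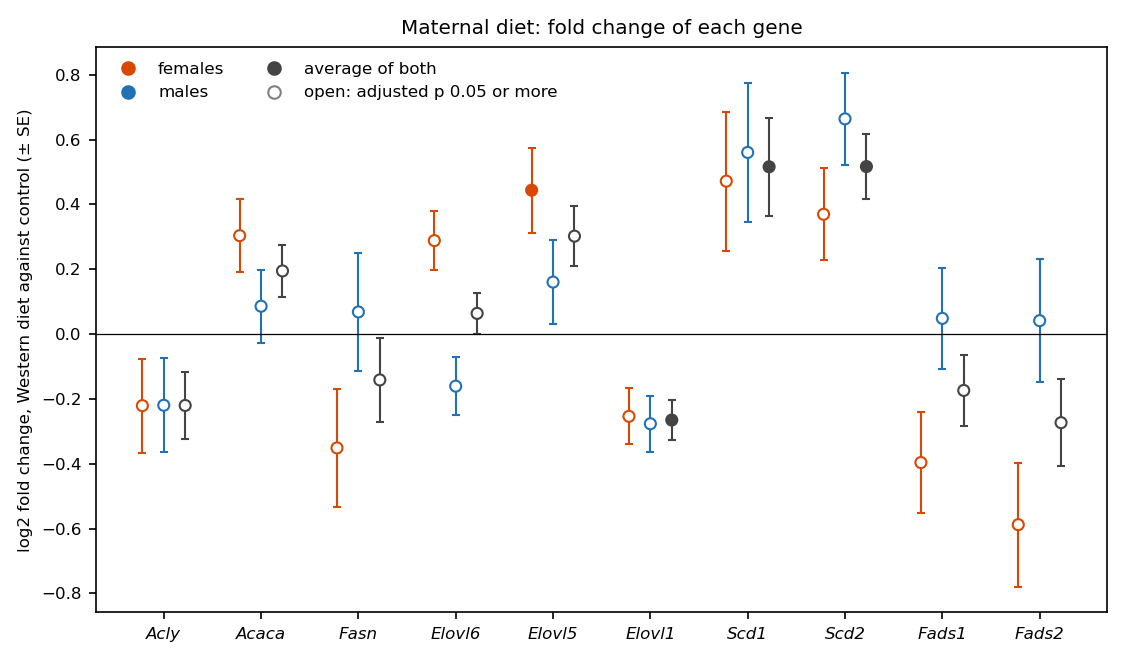
Log2 fold change of Western diet against control (vertical axis, ± SE) of each gene, by sex and for the average. Filled points passed an adjusted p of 0.05: Elovl5 in females, and Scd1, Scd2 and Elovl1 in the average.

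The 3 enzymes that lead to palmitate passed in no diet comparison. Acly (ENSMUSG00000020917, chromosome 11) ranged from 281 to 400 CPM in control females (median 370) and from 217 to 388 CPM in Western diet females (median 308). Male controls held 321 to 476 CPM (median 378) and male Western diet libraries 269 to 467 CPM (median 298). The diet groups overlapped in both sexes, although 4 of 6 Western diet males lay below all male controls. The log2 fold change of Acly was -0.22 in females and -0.22 in males (adjusted p = 0.404 and 0.706), and within batches it was negative in 4 of the 6 combinations of sex and batch.

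Acaca, the rate-limiting step (ENSMUSG00000020532, chromosome 11), was uniform in control females at 23.2 to 27.3 CPM (median 25.8). Western diet females held 26.002 to 39.3 CPM (median 31.2), and 5 of 6 lay above every control. In males the ranges were 24.2 to 34.9 CPM in controls (median 29.1) and 26.5 to 35.2 CPM with Western diet (median 30.5), which overlapped almost fully. Its log2 fold change was 0.30 ± 0.11 (SE) in females, with an adjusted p of 0.115, and 0.09 in males, with an adjusted p of 0.858. Acacb, the isoform tied to the control of fatty acid oxidation, stood at 2.17 to 2.58 CPM in the group means and did not pass in either sex (log2 fold change -0.01 and 0.22).

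Fasn (ENSMUSG00000025153, chromosome 11) held 97.7 to 143 CPM in control females (median 114) and 68.1 to 141 CPM in Western diet females (median 84.9). Of the latter, 5 of 6 lay below all controls, and Western diet female 4 alone reached the control range. Male controls spread from 53.3 to 148 CPM (median 130) and Western diet males from 94.2 to 163 CPM (median 117). For Fasn the log2 fold change was -0.35 ± 0.18 in females (adjusted p = 0.274) and 0.07 ± 0.18 in males (adjusted p = 0.941). Within batches it was negative in all 3 batches of females and in 1 of 3 of males. The promoter of Fasn is printed because it is a textbook target of SREBP. It is the RefSeq sequence from 250 bases before to 50 bases after the gene's start (GRCm38.p6, chr11:120824498-120824797, minus strand), and capitals mark CCAAT boxes (CCAAT) on either strand, of which there are 3. One pair overlaps on opposite strands.
Fasn: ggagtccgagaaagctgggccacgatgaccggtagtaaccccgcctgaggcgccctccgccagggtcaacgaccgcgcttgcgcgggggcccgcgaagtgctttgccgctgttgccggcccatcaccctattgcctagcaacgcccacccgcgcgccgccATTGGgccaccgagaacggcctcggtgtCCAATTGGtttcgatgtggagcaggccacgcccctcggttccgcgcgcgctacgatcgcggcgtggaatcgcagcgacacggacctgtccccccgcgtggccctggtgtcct

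Both strands were also searched for the classical sterol regulatory element (TCACNCCAC), the E-box CACGTG and the GC box GGGCGG. Over 32851 RefSeq promoters of this length, 1.24% held the sterol element, 37.4% a CCAAT box, 7.15% the E-box and 35.7% a GC box. Promoters of 7 of the 10 genes were in the table (8 windows, since Elovl1 had 2 starts), and none held those letters of the sterol element, which says only that they are not in these windows.

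Of the elongases, Elovl5 was the gene called in females. Elovl5 (ENSMUSG00000032349, chromosome 9) lengthens polyunsaturated acids. It held 61.7 to 108 CPM in control females (median 93.6) and 79.1 to 138 CPM in Western diet females (median 121). In females 5 of 6 Western diet libraries lay above all controls, while Western diet female 3, the lowest of its group, lay inside the control range. Male controls held 82.5 to 128 CPM (median 106) and Western diet males 109 to 129 CPM (median 113). With Western diet the log2 fold change was 0.44 ± 0.13 in females (adjusted p = 0.0475), 0.16 ± 0.13 in males (adjusted p = 0.757) and 0.30 ± 0.09 in the average (adjusted p = 0.0539). In the average Elovl5 was called in 6 of 35 other settings, among them DESeq2 and limma-voom, and not in the remaining 29. The difference between the sexes was not called (-0.28 ± 0.18, adjusted p = 0.665).

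The female call of Elovl5 was close to the threshold. Female control libraries 5 and 6, at 66.7 and 61.7 CPM, were the lowest of all 24, and batch 3 carried the largest of the within-batch differences (log2 1.00, against 0.37 in batch 1 and -0.08 in batch 2). Without those libraries the log2 fold change of Elovl5 was 0.26 (adjusted p = 0.461), and without batch 3 it was 0.17 (adjusted p = 0.654). The call was lost on leaving out any of 20 of the 24 libraries and held without female control 2 or 4, Western diet female 3 or male control 1. Over these single omissions the adjusted p ranged from 0.00579 to 0.153. The RefSeq promoter of Elovl5 (GRCm38.p6, chr9:77917115-77917414, plus strand) is shown as that of the gene called in females. Capitals mark 1 E-box (CACGTG) and 2 CCAAT boxes, both read as ATTGG on this strand.
Elovl5: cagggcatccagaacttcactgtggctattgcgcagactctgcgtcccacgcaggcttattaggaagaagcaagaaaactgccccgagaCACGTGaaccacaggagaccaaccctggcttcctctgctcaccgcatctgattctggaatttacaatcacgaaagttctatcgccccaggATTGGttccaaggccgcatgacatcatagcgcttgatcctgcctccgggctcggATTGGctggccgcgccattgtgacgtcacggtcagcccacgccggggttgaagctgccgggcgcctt

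Elovl1 (ENSMUSG00000006390, chromosome 4), which makes the very long saturated acids of sphingolipids, had similar diet effects in the sexes. Control females held 119 to 214 CPM (median 154) and Western diet females 107 to 178 CPM (median 127). Control males held 128 to 217 CPM (median 146) and Western diet males 104 to 156 CPM (median 132). The groups overlapped in both sexes and batch 3 was high in every group, while 5 of 6 Western diet females and 6 of 6 Western diet males lay below the mean of their controls. Within batches Elovl1 was lower with Western diet in all 6 combinations of sex and batch, by 0.03 to 0.43 on the log2 scale. Elovl1 had a log2 fold change of -0.25 ± 0.09 in females (adjusted p = 0.0840), -0.28 ± 0.09 in males (adjusted p = 0.329) and -0.27 ± 0.06 in the average (adjusted p = 0.0100), with a difference between the sexes of -0.02 ± 0.12. The average call was kept on leaving out any single library (adjusted p 0.00553 to 0.0245) and without female control libraries 5 and 6 (log2 -0.26, adjusted p = 0.0451). It was lost without batch 1, without batch 3, without a batch term and without the filter on low counts, where adjusted p-values were 0.0600, 0.298, 0.218 and 0.0562. The 2 RefSeq starts of Elovl1 have different promoters, shown because this is the member that fell. Capitals mark GC boxes, read as CCGCCC or GGGCGG, and in the first (GRCm38.p6, chr4:118427843-118428142, plus strand) also a CCAAT box that overlaps a GC box. The first holds 5 GC boxes and the second (chr4:118429451-118429750, plus strand) holds 2.
Elovl1, first start: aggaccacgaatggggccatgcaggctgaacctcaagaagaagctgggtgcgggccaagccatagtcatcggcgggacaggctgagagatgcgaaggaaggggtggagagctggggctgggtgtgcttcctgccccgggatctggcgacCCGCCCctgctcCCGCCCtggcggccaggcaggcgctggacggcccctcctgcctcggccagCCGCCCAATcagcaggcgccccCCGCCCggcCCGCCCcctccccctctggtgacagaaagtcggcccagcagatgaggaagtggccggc
Elovl1, second start: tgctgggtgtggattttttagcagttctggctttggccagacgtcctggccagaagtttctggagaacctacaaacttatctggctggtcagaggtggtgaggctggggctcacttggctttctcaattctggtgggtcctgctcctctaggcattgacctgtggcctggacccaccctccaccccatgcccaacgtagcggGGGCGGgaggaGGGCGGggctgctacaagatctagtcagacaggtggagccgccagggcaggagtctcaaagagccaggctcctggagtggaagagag

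Elovl6 (ENSMUSG00000041220, chromosome 3), which takes palmitate to stearate, had diet fold changes of opposite sign in the sexes. Control females held 37.6 to 55.5 CPM (median 50.2) and Western diet females 51.9 to 61.4 CPM (median 58.9), so that 6 of 6 Western diet females lay above the control mean and 4 of 6 above all controls. Control males held 49.6 to 74.6 CPM (median 58.0) and Western diet males 45.4 to 58.4 CPM (median 54.1), with 6 of 6 Western diet males below the control mean. The log2 fold change was 0.29 ± 0.09 in females (adjusted p = 0.0604) and -0.16 ± 0.09 in males (adjusted p = 0.655). The male minus female difference was -0.45 ± 0.13 (unadjusted p = 0.00178, adjusted p = 0.589 by edgeR). Each batch gave the same signs, from 0.16 to 0.53 in females and from -0.31 to -0.05 in males. Female control libraries 5 and 6 were the lowest of all 24 for Elovl6, at 37.6 and 38.4 CPM. Without them the female value was 0.20 (adjusted p = 0.443).

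**Figure D4:**
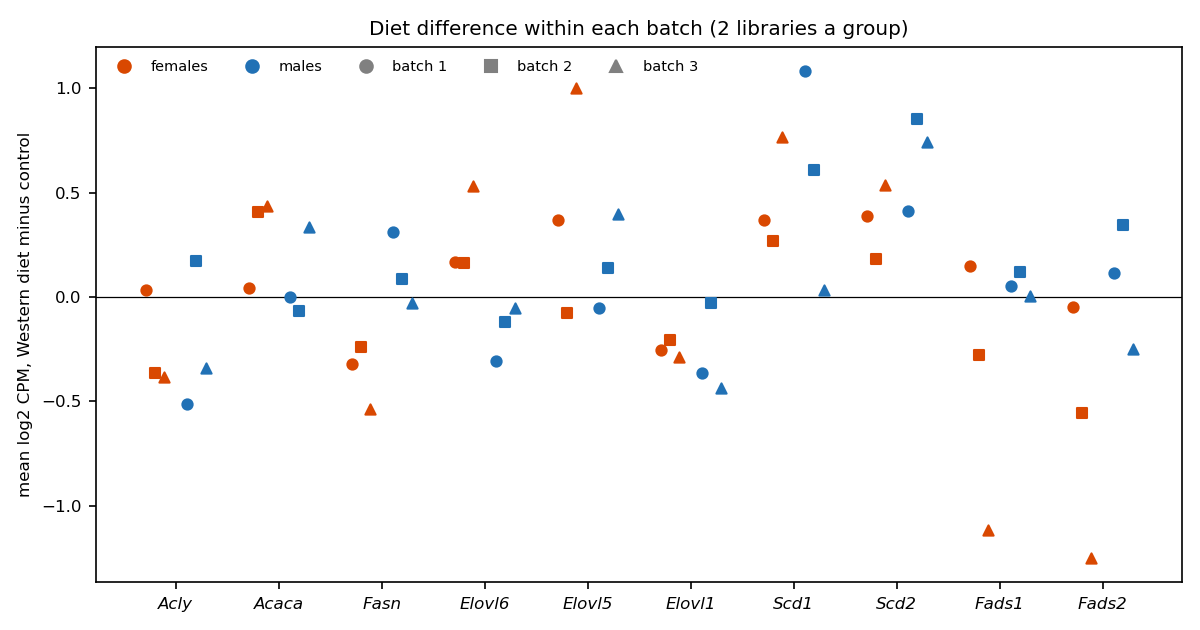
Difference of mean log2 CPM, Western diet minus control, within each batch (vertical axis), with 2 libraries a group behind each mean, for females and males. Scd1 and Scd2 are above 0 and Elovl1 below 0 in all 6 combinations of sex and batch, while the lowest points of Fads1 and Fads2 are females of batch 3, at -1.12 and -1.25.

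Scd2, the stearoyl-CoA desaturase of most tissues outside liver (ENSMUSG00000025203, chromosome 19), had the smallest adjusted p of the 10 genes. Male controls held 89.9 to 142 CPM (median 103) and Western diet males 144 to 221 CPM (median 168). No male Western diet library overlapped the controls, a pattern that 0.5% of all genes tested showed in males and 1.18% in females, and of the 10 genes Scd2 alone showed it, in males. Control females held 81.4 to 171 CPM (median 119) and Western diet females 117 to 188 CPM (median 155), and there the groups overlapped, with 5 of 6 Western diet libraries above the control mean. For Scd2 the log2 fold change was 0.66 ± 0.14 in males (unadjusted p = 0.000103 and adjusted p = 0.101 by edgeR, adjusted p = 0.0120 by DESeq2 and 0.0245 by limma-voom), 0.37 ± 0.14 in females (adjusted p = 0.129) and 0.52 ± 0.10 in the average (adjusted p = 0.00249). Within batches Scd2 was higher with Western diet in all 6 combinations of sex and batch, by 0.18 to 0.54 in females and 0.41 to 0.85 in males. The difference between the sexes was 0.29 ± 0.20 (adjusted p = 0.674). The average call of Scd2 was kept on leaving out any single library (adjusted p 0.000737 to 0.00981) and without female control libraries 5 and 6 (log2 0.48, adjusted p = 0.0169), and was lost without batch 3 (log2 0.45, adjusted p = 0.150).

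Scd1, the isoform that predominates in liver and fat (ENSMUSG00000037071, chromosome 19), had a similar fold change at a lower level. Control females held 5.58 to 10.3 CPM (median 7.23) and Western diet females 6.79 to 14.9 CPM (median 10.2). Control males held 6.19 to 12.9 CPM (median 7.08) and Western diet males 7.55 to 16.9 CPM (median 11.7). In each sex 5 of 6 Western diet libraries lay above the control mean, but the groups overlapped, and male control 6 lay above 5 of 6 Western diet males. Within batches 1, 2 and 3 the difference of mean log2 CPM, Western diet minus control, was 0.37, 0.27 and 0.77 in females and 1.08, 0.61 and 0.03 in males. The log2 fold change was 0.47 ± 0.21 in females (adjusted p = 0.203), 0.56 ± 0.21 in males (adjusted p = 0.470) and 0.52 ± 0.15 in the average (adjusted p = 0.0438). The average call was lost on leaving out any of 20 of the 24 libraries (adjusted p over all single omissions 0.0116 to 0.106) and held without female control 1, Western diet female 4, male control 6 or Western diet male 5. Without female control libraries 5 and 6 it was 0.47 (adjusted p = 0.157). Across the 24 libraries the log2 CPM of Scd1 and Scd2 had a Pearson r of 0.409 (permutation p = 0.0478, adjusted over 6 pairs 0.143) and a Spearman rho of 0.438 (permutation p = 0.0342, adjusted 0.103). Within batches 1, 2 and 3 r was 0.613, 0.482 and 0.398, with 8 libraries each, and without the 2 libraries farthest from the median of Scd1 it was 0.387. The part of reads from sequence that the Scd genes share was not tested.

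Fads1 and Fads2 differed between the female groups mainly in batch 3. They lie next to each other on chromosome 19 in the order Fads3, Fads2, Fads1, with Fads1 (ENSMUSG00000010663) on the plus strand and Fads2 (ENSMUSG00000024665) on the minus strand. For Fads2, control females held 102 to 227 CPM (median 165) and Western diet females 71.0 to 137 CPM (median 108), with 6 of 6 Western diet libraries below the control mean and 3 of 6 below all controls. Control males held 64.0 to 185 CPM (median 109) and Western diet males 91.0 to 140 CPM (median 122), a range inside that of the controls. The log2 fold change of Fads2 was -0.59 ± 0.19 in females (adjusted p = 0.0719) and 0.04 ± 0.19 in males (adjusted p = 0.969), and their difference was 0.63 ± 0.27 (unadjusted p = 0.0281, adjusted p = 0.589).

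Fads1 had the same pattern. Control females held 50.9 to 87.8 CPM (median 65.8), Western diet females 36.4 to 65.6 CPM (median 52.0), control males 40.7 to 66.6 CPM (median 50.9) and Western diet males 45.2 to 59.2 CPM (median 53.2). The log2 fold change was -0.40 ± 0.16 in females (adjusted p = 0.142) and 0.05 ± 0.16 in males (adjusted p = 0.955). Within batches 1, 2 and 3 the female differences were 0.15, -0.28 and -1.12 for Fads1 and -0.05, -0.55 and -1.25 for Fads2. Female control libraries 5 and 6 held the highest values of all 24 libraries for both genes (87.8 and 75.2 CPM for Fads1, 227 and 202 CPM for Fads2). Without them the female fold changes were -0.22 for Fads1 (adjusted p = 0.644) and -0.47 for Fads2 (adjusted p = 0.399), and without batch 3 they were -0.06 and -0.31 (adjusted p = 0.899 and 0.550).

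The levels of Fads1 and Fads2 went together over the libraries. The log2 CPM of the pair had a Pearson r of 0.834 (permutation p = 1e-05, the smallest that 100000 resamples can give, adjusted over 6 pairs 6e-05) and a Spearman rho of 0.793 (permutation p = 3e-05, adjusted 0.00018). The resamples ignored group and batch, so this p also takes in shifts between groups or batches that both genes share. Within batches 1, 2 and 3 r was 0.919, 0.873 and 0.933 over 8 libraries each. Without female control 5 and Western diet female 5, the 2 libraries farthest from the median of Fads1, it was 0.748. No 50-base stretch of Fads1 recurred in another gene. The other 4 pairs tested, Acaca with Fasn, Acly with Fasn, Fasn with Elovl6 and Elovl6 with Scd2, had r from -0.176 to 0.252, and none passed adjustment.

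**Figure D5:**
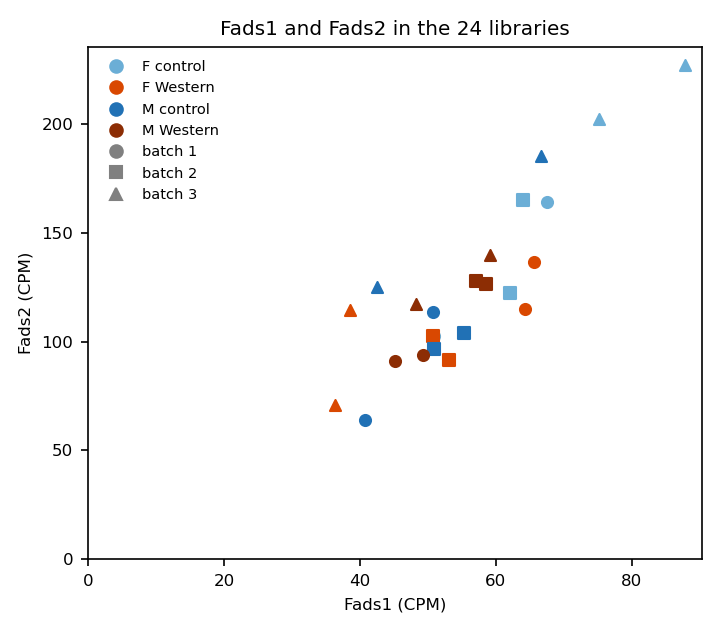
CPM of Fads1 (horizontal axis) and Fads2 (vertical axis) in the 24 libraries, coloured by group with symbols for the batch. The points rise together (r = 0.834 on the log2 scale), with female control libraries 5 and 6 at the upper right.

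The last comparison of the 10 genes was of males with females on the same maternal diet. In control pups edgeR called none of the 10 (3 at an unadjusted p under 0.05), where it called 22 of 19616 genes tested (0.112%). DESeq2 called 1 of the 10, Elovl6, where it called 279 of 19616 genes. With limma-voom, which called 135 of 19616 genes, none of the 10 passed. In Western diet pups none of the 10 passed by any of these tools (1 at an unadjusted p under 0.05 by edgeR), where edgeR called 0.0816% of all genes. The control comparison shares its libraries with the diet comparisons, so its values are not independent of theirs. Among controls, Elovl6 was higher in males (log2 fold change 0.33 ± 0.09, adjusted p = 0.136), and Fads1 and Fads2 were lower in males, at -0.41 ± 0.16 and -0.52 ± 0.19 (adjusted p = 0.262 and 0.245), none of these past the threshold. Without female control libraries 5 and 6, where 0.0446% of all genes were called, these log2 fold changes were 0.24 for Elovl6, -0.22 for Fads1 and -0.39 for Fads2 (adjusted p = 0.981 each by edgeR). Among Western diet pups the smallest adjusted p of the 10 belonged to Fasn, at 0.736 with a log2 fold change of 0.39 ± 0.18, male over female.

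Other genes of the pathway were read from 7 lists that together held 84 genes, of which 78 were tested. In females 3 rose and 7 fell (5.42% of all genes tested were called), in males none passed (0.0102%), and in the average 3 rose and 10 fell (5.7%). Without female control libraries 5 and 6, of 79 tested none passed in females (0.763% of all genes called) or males (0.00991%), and in the average (2.22%) 0 rose and 2 fell, Acsl1 and Hacd3. The counts of each list that follow include those libraries, and are to be read beside the shares of all genes called.

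Among 13 genes that supply acetyl-CoA, malonyl-CoA and NADPH, 0 rose and 1 fell in females, where the list's median log2 fold change was -0.10, beside 0.03 over all genes. That gene was Acss1, the mitochondrial acetyl-CoA synthetase, at 287 ± 133 CPM in control and 118 ± 41.9 CPM in Western diet females (log2 -1.18, adjusted p = 0.0107), and at 157 ± 54.7 and 137 ± 22.3 CPM in males (SD, n = 6 each). In the average Acss1 fell (-0.68) and Idh1, the cytosolic isocitrate dehydrogenase that makes NADPH, rose (0.40, adjusted p = 0.0458).

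Of 15 tested genes that control lipogenic transcription, 0 rose and 1 fell in females and in the average. It was Lpin1 (-0.75 in females, adjusted p = 0.0441), a phosphatidate phosphatase that also acts in the nucleus. The list's median was -0.22 in females and 0.00 in males. Srebf1 itself did not pass, at 136 ± 11.6 CPM in control and 104 ± 33.98 CPM in Western diet females (log2 -0.39, adjusted p = 0.325) and at 101 ± 34.3 and 127 ± 14.8 CPM in males (0.33, adjusted p = 0.713). Insig1, which retains the SREBP precursor in the endoplasmic reticulum, had values of -0.23 and 0.25, and Nr1h3, the LXR alpha gene, 0.07 and -0.03 in females and males, and neither passed.

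Of 9 genes of AMP-activated kinase, the enzyme that phosphorylates and inhibits acetyl-CoA carboxylase, and its activator LKB1, 1 rose and 1 fell in females. The subunit gene Prkag2 rose (0.50, adjusted p = 0.0368) and Prkab1 fell (-0.70, adjusted p = 0.00998). In the average Prkab1 fell (-0.43) and so did the catalytic subunit gene Prkaa1 (-0.38, adjusted p = 0.0228), whose values were -0.44 in females and -0.32 in males.

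Among 9 tested other enzymes of the elongation cycle, 2 rose and 0 fell in females. Elovl7, an elongase of saturated acyl chains, rose from 2.54 ± 0.48 to 3.99 ± 0.76 CPM (log2 0.66, adjusted p = 0.0183), and Hsd17b12, the ketoacyl reductase of the cycle, rose from 133 ± 22.2 to 188 ± 43.5 CPM (0.51, adjusted p = 0.0228). In males Hsd17b12 stood at 168 ± 23.01 and 155 ± 14.7 CPM (-0.11), and the difference between the sexes was -0.62 ± 0.18 (adjusted p = 0.589). In the average Elovl7 rose (0.45) and Hacd3, a dehydratase of the cycle, fell (-0.34, adjusted p = 0.00459), with -0.27 in females and -0.40 in males.

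Of 9 tested other desaturases and their electron carriers, 0 rose and 3 fell in females. Cytochrome b5 (Cyb5a) and its reductase (Cyb5r3) carry electrons to the Scd and Fads enzymes. Cyb5a fell from 260 ± 51.7 to 196 ± 27.1 CPM (-0.40, adjusted p = 0.0294), Cyb5r3 fell from 260 ± 83.7 to 162 ± 40.6 CPM (-0.64, adjusted p = 0.0264), and Fads3, the neighbour of Fads2, fell from 8.07 ± 1.45 to 5.68 ± 0.99 CPM (-0.52, adjusted p = 0.0496). In the average, which holds the same female libraries, Cyb5a (-0.31), Cyb5r3 (-0.42) and Fads3 (-0.38) were also called lower. None of these passed in males or, without female control libraries 5 and 6, in the average (adjusted p = 0.0731, 0.154 and 0.157 by edgeR). Also in the average Degs2, a sphingolipid desaturase and hydroxylase at 0.205 to 0.465 CPM in the group means, rose (1.01, adjusted p = 0.0139).

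Of 8 tested genes of mitochondrial fatty acid synthesis, the separate pathway that makes the precursor of lipoic acid, none passed. The smallest p within a sex belonged to Lipt1 (log2 fold change -0.38 in males, adjusted p = 0.493). Of 15 genes that use new fatty acids in membrane and storage lipid, 0 rose and 1 fell in females. Acsl1, a long chain acyl-CoA synthetase, fell from 119 ± 26.3 to 80.8 ± 11.9 CPM (-0.54, adjusted p = 0.00228), and stood at 101 ± 15.8 and 77.9 ± 6.85 CPM in males (-0.36, adjusted p = 0.271). In the average Acsl1 (-0.45, adjusted p = 0.000354) and its relative Acsl5 (-0.27, adjusted p = 0.0188) fell, and without female control libraries 5 and 6 Acsl1 was at -0.40 (adjusted p = 0.00313).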

How the data were processed

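The data are 24 RNA sequencing libraries of LSK cells. For each library the authors deposited a file of raw counts by gene, in HTSeq's format. The submitters' processing notes name FastQC, cutadapt, STAR, HTSeq, DESeq2 and the mouse build GRCm39. Versions, annotation release and the strand setting were not given in the sources used here. Per the labels' protocols, libraries were made from RNA of integrity above 8.0 with a low-input kit that does not mark strand, so reads of overlapping antisense genes cannot be told apart. The files' closing lines, which are not genes, made up 31.0 to 39.3% of the counts of a library and were left out of library sizes and of all tests. Of 55414 identifiers 52081 matched a symbol in GENCODE vM21, an older build, used here for names, chromosomes and exon lengths. Promoters came from a RefSeq table on GRCm38.p6.

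Counts were fitted in edgeR 4.0.16 (R 4.3.3) with filterByExpr, TMM scaling (factors 0.932 to 1.05), 1 term per group plus batch, and robust quasi-likelihood tests, 6 comparisons in all. The two-sided p-values were adjusted by Benjamini-Hochberg over 19616 genes and called under 0.05. The SE of a log2 fold change was derived from its test, as the absolute fold change over the square root of the F statistic. No library repeated another (chi-square per degree of freedom of at least 17.2 between any 2). CPM are TMM-scaled, log2 CPM used a prior count of 1, and permutation tests of 6 correlations used 100000 resamples (scipy 1.17.1). The resamples shuffled all 24 libraries without regard to group or batch. Groups, replicate numbers and batches came from the labels. The members and gene lists were chosen with earlier results of these data known. All members were named, with every pathway gene called in a diet comparison (at most 4 a list by smallest p, otherwise the smallest p), Srebf1, Nr1h3, Insig1, Prkaa1, Acacb and Fads3, and the most abundant marker of each list described. Of 190 listed symbols 189 matched. The alternatives were DESeq2 size factors, other filters, DESeq2 1.42.0, limma-voom (limma 3.58.1), other designs and omitted libraries or batches. The pathway and marker counts without female control libraries 5 and 6 were added after the data were seen. The fit was tested on simulated data without batch differences or outlying libraries, so that test does not cover those features of these data.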

Additional observations from a re-analysis of the deposited data

Results flagged for a closer look

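Acly, ATP citrate lyase, was low in female control library 2, at 281 CPM beside a group median of 370 CPM. Its gap to the nearest library was 0.663 of the group's range of log2 CPM, above Dixon's 95% critical value for 6 libraries. Elovl5, the elongase of polyunsaturated acids, was low in Western diet female 3, at 79.1 CPM beside a group median of 121 CPM, with a gap of 0.709 of the range. The 10 genes in 4 groups gave 40 such checks, and chance flags about 1 in 20.

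Elovl6, the elongase that takes palmitate to stearate, had diet fold changes of opposite sign in the sexes. They were 0.29 in females and -0.16 in males on the log2 scale (adjusted p = 0.0604 and 0.655 by edgeR). The male minus female difference was -0.45 on the log2 scale (unadjusted p = 0.00178, adjusted p = 0.589 by edgeR). Elovl6 was flagged because 6 of 6 Western diet females lay above and 6 of 6 Western diet males below the mean of their own controls. That pattern is the rule of the flag and adds no evidence to it. The share of all genes with such a pattern was not counted.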

How the results depend on the processing

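Of 60 results of single genes (10 genes in 6 comparisons), recomputed 2140 times, 58 values lost a call and 23 gained one, and no called value changed sign, while 81 values without a call did. DESeq2 size factors moved the median log2 fold change of all genes by at most 0.0179. The Elovl5 call in females held in 9 of 36 other settings, that of Scd1 in the average in 9 of 35, that of Elovl1 in 31 of 35 and that of Scd2 in 34 of 35. At these depths each gene had at least 229 counts a library, so the spread between libraries limits the tests more than counting error. The cause of the changes below was not tested.

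Counts of genes called are given in the order diet in females, diet in males, diet averaged, difference of diet effects, sex in controls and sex in Western diet pups where 6 are listed. With no filter on low counts 2023, 380, 1693, 572, 1296 and 283 genes were called, and of the 10 genes 2 in females (Elovl5, Fads2), 1 in males (Scd2) and 1 by sex in controls (Fads2). With DESeq2 1776, 100, 1781, 4, 279 and 36 genes were called, and of the 10 genes 4 in females (Elovl1, Elovl5, Elovl6, Fads2), 1 in males (Scd2) and 1 by sex in controls (Elovl6). With a stricter filter 1190 of 14795 genes tested were called in females and 10 in males. Of the 10 genes that filter gave 2 in females. With limma-voom 112 genes were called in males, 135 by sex in controls, and 1 of the 10 genes in males (Scd2). With DESeq2 size factors in edgeR 0 of the 10 genes passed in females, where 1042 of 19616 genes tested were called.

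With no batch term, 404 genes were called in females, 0 in males, 466 in the average, 8 by sex in controls and 10 by sex in Western diet pups, and of the 10 genes 0 in females and 1 in the average. With the libraries of the compared groups alone, 358 genes were called in females, 1 in males, 111 by sex in controls and 9 by sex in Western diet pups, and 0 of the 10 genes in females. With the replicate number as a block in place of batch (the replicate block), 827 genes were called in females and 924 in the average. That block gave 1 gene in males and 13 by sex in controls. Of the 10 genes 0 were called in females, and the 3 calls in the average stayed. Of 18 correlations of same-numbered deviations within batches 2 were over 0.1 (range -0.153 to 0.166). No level for paired libraries was set, so these values cannot decide whether the numbers pair the libraries.

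Without batch 1, 1839 genes were called in females, 1 in males, 1107 in the average and 123 by sex in Western diet pups. Of the 10 genes, 2 were called in females (Fads1, Fads2) and 1 in the average (Scd2). Without batch 2, 297 genes were called in females, 1 in males, 556 in the average and 7 by sex in controls. Without batch 3, 146 genes were called in females, 0 in males, 143 in the average and 9 by sex in controls, and 0 of the 10 genes in females or the average. Without female control libraries 5 and 6, 154 genes were called in females, 447 in the average and 9 by sex in controls, and 0 of the 10 genes in females. Leaving out each library in turn gave 504 to 1386 genes in females (lowest without female control 6, highest without female control 2), 1 to 13 in males, 716 to 1464 in the average, 13 to 107 by sex in controls and 10 to 23 by sex in Western diet pups. Of the 10 genes it gave 0 to 3 in females and 2 to 3 in the average. Within single batches, Pearson's r moved to 0.933 for Fads1 and Fads2 in batch 3, -0.262 for Acaca and Fasn in batch 3, -0.429 for Acly and Fasn and -0.837 for Fasn and Elovl6 in batch 1, and -0.458 and -0.388 for Elovl6 and Scd2 in batches 1 and 2.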
